A study of Mus musculus with 5 samples.

Results

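Intragenic distal H3K27ac peaks are stretches of acetylated chromatin that lie inside a gene but away from its ends. Here they were the peaks on chromosomes 1 to 19, narrower than 4000 bp, whose summit lay inside the body of a protein-coding gene and more than 1 kb but at most 50 kb from the nearest end of any protein-coding gene. There were 7808 such peaks among the 22948 of the deposited list, or 34% (95% Wilson interval 33.4 to 34.6%). The rule used position and width, and no measured signal. Of the 22948 peaks, 22618 lay on these chromosomes, 22054 of those were narrow enough, 15738 of those had the summit inside a protein-coding gene, and 10190 of those lay more than 1 kb from every end. Intervals on shares are Wilson intervals at the 95% level over peaks, genes or starts, and intervals on medians come from binomial ranks over peaks. Both cover counting error only.

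H3K27ac was measured by ChIPmentation, in which chromatin is precipitated with an antibody and the Tn5 transposase then inserts the sequencing adapters. The cells were mouse bone marrow cells sorted as CD45.2+Lineage-Sca1+Kit+ and labelled HSC/MPP, for haematopoietic stem cells and multipotent progenitors. All 5 libraries, 4 of H3K27ac and 1 input, carried the genotype label Mll3/4 deleted, and neither a promoter for the deletion nor an age of the mice was given in the sources used here. The 4 H3K27ac libraries share 1 peak list, with no value of a single library, no read total and no control genotype. No replicate error, test or gain and loss can therefore be given, and each peak value is the authors' own. In such a sorted population, fewer acetylated cells and less acetylation per cell cannot be told apart.

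H3K27ac is placed by the acetyltransferases EP300 and CREBBP and marks active promoters and enhancers. The deleted genes, Kmt2c (Mll3) and Kmt2d (Mll4), encode methyltransferases of the COMPASS family that place H3K4me1, a mark of enhancers, and that bring acetyltransferases to them. Introns hold many of the enhancers of blood cells, and long genes of blood transcription factors often carry several, which control the gene around them or a neighbour. A peak inside a gene can also sit at an alternative start of that gene, from which a shorter transcript is made.

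The strongest intragenic distal peaks often lay at such internal starts. The signal value, read as the enrichment of H3K27ac over background, was highest at 19.8 in Unk, at chr11:116029984-116033106. Its summit lay 2386 bp from the gene end and 686 bp from another annotated start of Unk. The next were in Pnisr (17.5, chr4:21847485-21848678), Kansl1l (17.1, chr1:66813728-66817499) and Hexim2 (15.9, chr11:103130951-103132949). Hexim2 encodes an inhibitor of the elongation kinase P-TEFb. The Pnisr summit lay 237 bp from the start of a long noncoding RNA gene, 4930528A17Rik. Smim14 (14.2), Tank (13.3), Tsc22d1 (13.0), Dusp16 (12.7) and Hlcs (12.6) each had a start of their own within 1 kb of the summit. Tank encodes an adaptor of NF-kappaB signalling and Dusp16 a phosphatase of MAP kinases. The Cd274 peak (12.7, chr19:29370285-29373296), in the gene of the checkpoint ligand PD-L1, lay 4703 bp from the nearest gene end, which belongs to Plgrkt. Among the 100 strongest peaks searched for starts, 57.0% (47.2 to 66.3%) had one within 1 kb, against 3.6% (2.61 to 4.94%) of the 1000 weakest.

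The start sequences that follow show the letters around the internal starts at these peaks. Each runs from 250 bases before to 50 bases after an annotated start inside the named gene, on the strand of the gene, from the RefSeq table of GRCm38.p6. Capitals mark GGGCGG, the letters of a KLF/SP site, or CCGGAAGT, an ETS core, as read on either strand. Smim14, Tank and Dusp16 are among the 10 strongest peaks, and of the start windows there these held the most matches. The Unk window, at the strongest intragenic distal peak, held neither motif. The windows of 4930528A17Rik and Hlcs held 1 match each and that of Tsc22d1 held 2. Arih2 is among the 12 genes with the most peaks, and Kmt2d is a deleted gene. Bach2os is an antisense noncoding RNA gene within Bach2, shown as a start with few CpG under a weak peak.
Smim14: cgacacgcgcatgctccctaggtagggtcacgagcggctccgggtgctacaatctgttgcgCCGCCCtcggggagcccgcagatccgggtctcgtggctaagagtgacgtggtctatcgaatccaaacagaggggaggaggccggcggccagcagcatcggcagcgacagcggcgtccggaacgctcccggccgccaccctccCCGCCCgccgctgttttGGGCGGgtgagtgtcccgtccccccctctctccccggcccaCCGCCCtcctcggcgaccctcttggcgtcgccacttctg
Tank: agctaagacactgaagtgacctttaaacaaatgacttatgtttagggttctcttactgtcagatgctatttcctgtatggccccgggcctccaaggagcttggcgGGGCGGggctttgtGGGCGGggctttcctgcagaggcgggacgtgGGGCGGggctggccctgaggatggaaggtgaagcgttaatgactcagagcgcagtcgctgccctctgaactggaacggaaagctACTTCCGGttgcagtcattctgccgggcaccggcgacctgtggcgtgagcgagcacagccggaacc
Dusp16: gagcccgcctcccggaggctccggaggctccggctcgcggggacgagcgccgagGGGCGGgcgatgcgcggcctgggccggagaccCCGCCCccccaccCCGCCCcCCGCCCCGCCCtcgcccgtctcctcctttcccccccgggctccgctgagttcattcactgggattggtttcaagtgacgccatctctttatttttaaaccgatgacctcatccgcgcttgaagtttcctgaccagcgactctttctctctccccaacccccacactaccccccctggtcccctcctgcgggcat
Arih2: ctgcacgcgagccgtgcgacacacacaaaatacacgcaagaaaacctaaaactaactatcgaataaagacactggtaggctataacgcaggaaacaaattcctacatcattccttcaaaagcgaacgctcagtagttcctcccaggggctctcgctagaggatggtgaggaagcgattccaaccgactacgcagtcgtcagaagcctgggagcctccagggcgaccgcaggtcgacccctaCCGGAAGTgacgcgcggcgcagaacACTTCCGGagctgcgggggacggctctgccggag
Kmt2d: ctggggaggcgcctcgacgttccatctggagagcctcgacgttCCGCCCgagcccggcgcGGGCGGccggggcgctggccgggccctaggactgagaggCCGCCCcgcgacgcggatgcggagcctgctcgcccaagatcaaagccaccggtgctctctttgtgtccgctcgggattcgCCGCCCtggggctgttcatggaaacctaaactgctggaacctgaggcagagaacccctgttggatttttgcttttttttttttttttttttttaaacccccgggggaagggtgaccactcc
Bach2os: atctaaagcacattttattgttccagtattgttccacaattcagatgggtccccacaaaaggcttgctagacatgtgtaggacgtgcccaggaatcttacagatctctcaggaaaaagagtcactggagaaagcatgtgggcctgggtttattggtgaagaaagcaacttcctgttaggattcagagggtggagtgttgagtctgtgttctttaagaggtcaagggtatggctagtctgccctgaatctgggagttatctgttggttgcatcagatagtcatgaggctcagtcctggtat

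The windows lay at chr5:65492662-65492961 (Smim14), chr2:61592902-61593201 (Tank), chr6:134792579-134792878 (Dusp16), chr9:108649359-108649658 (Arih2), chr15:98871156-98871455 (Kmt2d) and chr4:32571613-32571912 (Bach2os). The Tank window is on the plus strand and the others on the minus strand. The Smim14 window held 35 CpG and 4 matches of GGGCGG, and the Dusp16 window held 28 CpG and 5 such matches. The Tank window held 18 CpG, 3 matches of GGGCGG and 1 of CCGGAAGT. The Arih2 window, under a peak with a signal value of 7.41, held 26 CpG and 2 matches of CCGGAAGT. The Bach2os window held 1 CpG and neither motif, and its peak had a signal value of 2.66. The Kmt2d window held 27 CpG and 4 matches of GGGCGG. The start itself lay under a peak in each of these genes, but the window did so only in part in 4 of them. The peak covered 300 of the 300 bases in Smim14 and Arih2, 230 in Bach2os, 177 in Tank and 125 in Dusp16, and the 2 Kmt2d peaks covered 66 and 67. Of the marked matches, all of those of Smim14 and Arih2, 2 of 4 in Tank, 2 of 4 in Kmt2d and 0 of 5 in Dusp16 lay inside a peak. A match is a run of letters and no measured binding.

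The start table covers 16457 of the 20665 protein-coding genes on these chromosomes and none on chromosome 18, so 7515 of the 7808 peaks were searched against it. For 6301 of them a host gene is in the table, and 16.6% of these (15.7 to 17.6%) had a start within 1 kb. The own starts of the other hosts could not be found. Of all 7515, 1068 (14.2%, 13.4 to 15%) had a start within 1 kb of the summit. This share was 9.08% within 500 bp, 30.5% where −log10 q had to reach 5 and 31.9% where the signal value had to reach 4. For 963 it was a start of the host gene, and for 105 the nearest belonged to a long noncoding RNA gene. The 963 peaks at a host start had a median signal value of 4.01 (interquartile range 3.12 to 5.70) and a median width of 996 bp. The 105 at a noncoding RNA start had a median of 3.03. The 6447 peaks with no annotated start nearby had a median signal of 2.84 (2.52 to 3.52) and a width of 786 bp. A peak at a host start was thus stronger than most of the others, though the ranges overlapped.

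The same relation was read from the starts. The interior of protein-coding genes, as the rule bounds it, held 5418 annotated starts of 4349 genes, of which 572 (10.6%) lay under an intragenic distal peak. Of the 3321 that are starts of the surrounding protein-coding gene, whether or not it held a peak, 467 (14.1%) did so, against 105 of 2097 starts of noncoding RNA genes (5.01%). The median window under such a peak held 17 CpG, against 6 in the 4706 windows under no peak and 7 in all 31396 starts. GGGCGG occurred in 52.3% of windows under a peak (48.2 to 56.3%), in 28.4% under no peak (27.1 to 29.7%) and in 36% of all starts. It was more frequent still over all starts of host genes (59.6%, median 20 CpG) and lay in 48.1% of starts of genes with room and no intragenic distal peak (median 14 CpG). CCGGAAGT occurred in 10.3% (8.08 to 13.1%), 1.44% (1.14 to 1.83%) and 3.95% of the same windows. Over all starts of host genes it occurred in 5.55%, and over starts of genes with room and no intragenic distal peak in 5.76%. Among windows with at least 15 CpG, a limit chosen after the values were seen, GGGCGG was found under a peak in 75.5% of 322 windows (70.5 to 79.8%) and under none in 73.3% of 1076 (70.6 to 75.9%), with overlapping intervals. CCGGAAGT was found there in 14.3% (10.9 to 18.5%) against 3.81% (2.82 to 5.13%), with intervals that did not overlap. Over windows of all CpG contents, the ETS letters CAGGAAGT were found in 5.94% under a peak (4.28 to 8.19%) and 3.10% under none (2.64 to 3.64%), and the GATA letters AGATAA in 6.99% (5.18 to 9.38%) and 11.6% (10.7 to 12.5%). Over all starts of host genes AGATAA occurred in 6.88%, close to its share under a peak. Over starts of genes with room and no intragenic distal peak it occurred in 8.66%. AGATAA was not counted in the windows of at least 15 CpG alone. Within the windows of at least 15 CpG, CAGGAAGT was found in 3.11% (1.70 to 5.62%) and 2.04% (1.35 to 3.08%), with overlapping intervals. The AP-1 letters TGANTCA were found in 7.87% of windows under a peak and 7.86% under none. Some windows of 1 gene overlap, so they are not independent.

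Most intragenic distal peaks were weak. Their median signal value was 2.94 (2.90 to 2.97), with an interquartile range of 2.57 to 3.79 and a range of 1.46 to 19.8. The 7156 peaks near a gene end, defined as within 1 kb, had a median of 4.22 (4.17 to 4.28). The 3551 intergenic peaks within 100 kb of a gene had 3.09 (3.03 to 3.12), and the 2382 peaks more than 50 kb from an end inside long genes had 2.78 (2.75 to 2.81). All 4 groups had the same limit on width. A signal value of at least 4 was reached by 21.8% of intragenic distal peaks and by 55.4% of peaks near a gene end. The median width was 805 bp (interquartile range 487 to 1432 bp) against 922.5 bp near a gene end. A q-value of at most 0.05 was attached to 71.7% (70.7 to 72.7%) of intragenic distal peaks, against 78.8% of all peaks, 92.4% near gene ends, 77.3% of intergenic peaks and 62.9% deep inside long genes.

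**Figure D1:**
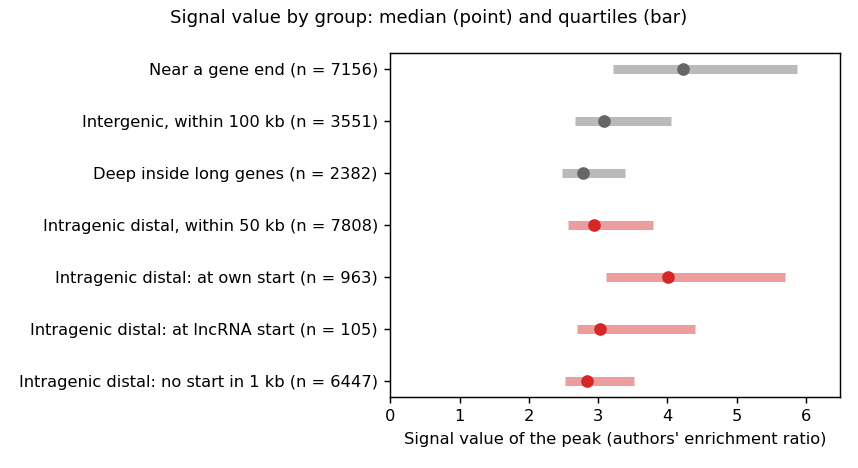
Signal value of the peaks (horizontal axis, the authors' enrichment ratio) by group, with points for medians and bars from the lower to the upper quartile; red marks the intragenic distal peaks as a whole and split by annotated starts. Peaks at a start of their own gene (median 4.01) lie close to peaks near a gene end (4.22), and those with no start within 1 kb (2.84) close to peaks deep inside long genes (2.78).

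Peaks were counted against the room for them, since each kb of distance from an end holds fewer bases the farther it lies. The interior open to the rule measured 599 Mb and held 13.0 intragenic distal peaks per Mb. The median distance to the nearest end was 12.8 kb (interquartile range 4.5 to 26.3 kb). Density was 26.9 per Mb at 1 to 2 kb from an end, 10.5 per Mb at 5 to 10 kb and 13.2 per Mb at 30 to 50 kb. The density at 1 to 5 kb was 1.26 times (1.19 to 1.33) that at 20 to 50 kb. On the 5′ side of the host gene the densities were 25.6 and 13.8 per Mb, and on its 3′ side 8.59 and 13.0 per Mb, so the pooled ratio joins opposite orders. The ratio was 2.5 where −log10 q had to reach 5 and 2.60 where the signal value had to reach 4. With a limit of 2.5 kb in place of 1 kb the pooled ratio turned to 0.889. On the 5′ side alone the density at 2 to 5 kb was 17.3 per Mb (15.9 to 18.8). With all peaks counted, this was still above the 13.8 (13.0 to 14.7) at 20 to 50 kb. Without peaks at annotated starts the 5′ density at 2 to 5 kb was 10.6 per Mb. That is below the 13.1 at 20 to 30 kb and 12.8 at 30 to 50 kb. In these counts the bases within 1 kb of annotated starts stayed in the room, which lowers the densities by an amount not measured. Whether the order would turn with those bases left out was not tested. The median signal value was 3.55 at 1 to 2 kb, 3.06 at 2 to 5 kb and 2.81 at 30 to 50 kb.

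The density near an end was highest at the 5′ end of the host gene. Where strand was known, 3427 peaks had the 5′ end of their own gene as the nearest end and 2315 the 3′ end. At 1 to 2 kb there were 46.7 peaks per Mb on the 5′ side (43.1 to 50.6) and 10.1 on the 3′ side (8.47 to 11.9). At 30 to 50 kb the densities were 13.7 and 13.2 per Mb. Without the peaks at annotated starts, the 5′ side had 20.2 per Mb at 1 to 2 kb and 10.6 at 2 to 5 kb. It had 9.35 at 5 to 10 kb, 13.1 at 20 to 30 kb and 12.8 at 30 to 50 kb. In these counts, which keep the bases near starts in the room, its excess near the end was left at 1 to 2 kb alone. The 3′ side had 9.59 at 1 to 2 kb. Of the 977 peaks at 1 to 2 kb, 388 reached with their own edge into the 1 kb around an end and 399 had another peak there. On the 5′ side these were 249 and 269 of 608 peaks.

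**Figure D2:**
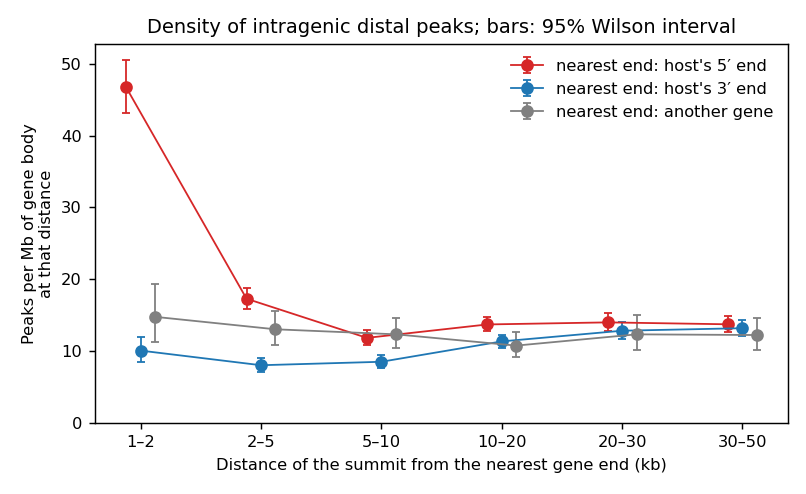
Intragenic distal peaks per Mb of gene interior (vertical axis) by distance of the summit from the nearest gene end in kb (horizontal axis), for peaks nearest the 5′ end of their own gene (red), its 3′ end (blue) or an end of another gene (grey), with Wilson intervals. The 5′ side is highest at 1 to 2 kb (46.7 per Mb against 10.1 on the 3′ side), and the sides are at 13.7 and 13.2 per Mb at 30 to 50 kb.

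The peaks lay in 3559 of the 18328 protein-coding genes with interior room, or 19.4% (18.9 to 20%). Of these host genes, 1969 held 1 peak, 1244 held 2 to 4, 264 held 5 to 9 and 82 held 10 or more. The 82 genes with 10 or more held 1094 peaks, 14.0% of the total. Another peak, not itself an intragenic distal one, overlapped the 1 kb around either end of 1817 host genes (51.1%, 49.4 to 52.7%), against 38.8% of all genes with room and 35.9% of the 14769 genes without an intragenic distal peak. This share was 47.9% in hosts with 1 peak and 73.2% in hosts with 10 or more. With −log10 q of at least 5 for every peak, the share was 30.9% in hosts (28.7 to 33.3%) and 25.3% in genes without such a peak (24.6 to 25.9%). Where the signal value had to reach 4, these were 30.04% and 24.4%. Where the intragenic distal peaks themselves were let count at an end, which favours hosts by construction, the share of hosts was 60.9%. The median signal of the peaks went the other way, from 3.18 in hosts with 1 peak to 2.78 in hosts with 10 or more. Host genes were also longer, with a median room of 53.1 kb against 15 kb. Among genes with more than 50 kb of room, 54.9% with a peak at an end (52.5 to 57.2%) and 32.2% without one (30.5 to 33.9%) held an intragenic distal peak. Among genes with at most 5 kb these shares were 6.35% and 2.12%.

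**Figure D3:**
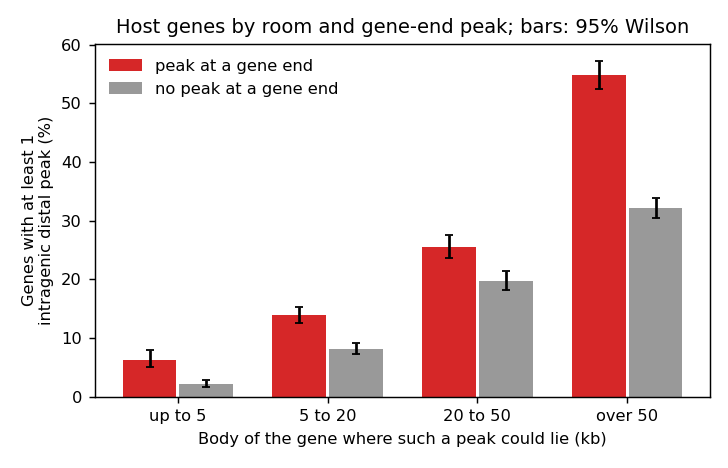
Percent of protein-coding genes that hold an intragenic distal peak (vertical axis) by interior room in kb (horizontal axis), for genes with and without a peak at an end; error bars are Wilson intervals. In each of the 4 classes of room the genes with another peak at an end are higher, 54.9% against 32.2% in the class with the most room.

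Zmiz1, a coactivator gene of the PIAS-like family, held the most intragenic distal peaks, 37, with signal values from 1.88 to 6.91 and a median of 2.75. Rftn1, which encodes a lipid raft protein of lymphocytes, held 23 (2.10 to 3.40), Gramd4 held 22 (2.05 to 4.99) and Fam53b held 21 (2.05 to 6.98). Arid1b, a subunit of the BAF chromatin remodeller, held 20 (2.15 to 3.67). Bcl11a and Ebf1, transcription factors of B-cell development, and Mtss1 held 19 each. Trio, Nedd9 and Mgat4a held 18 each, and Arih2 held 17. Mtss1 and Arih2 had no peak at an end. A q-value of at most 0.05 was attached to 29 of the 37 peaks of Zmiz1 and 17 of the 19 of Bcl11a, but to 10 of 20 in Arid1b, 10 of 19 in Ebf1 and 8 of 17 in Arih2. In 8 of the 12 genes further peaks lay beyond 50 kb from an end: 44 in Arid1b, 33 in Ebf1, 17 in Nedd9, 13 in Rftn1, 11 in Zmiz1, 6 in Trio, 5 in Mtss1 and 1 in Fam53b. The strongest peaks of Arih2 (7.41) and Zmiz1 (6.91) lay at annotated internal starts. That of Fam53b (6.98) lay 1021 bp from an annotated start, just past the 1 kb used here. This Fam53b start lies within 1 kb of the gene end, so it is outside the interior as the rule bounds it.

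**Figure D4:**
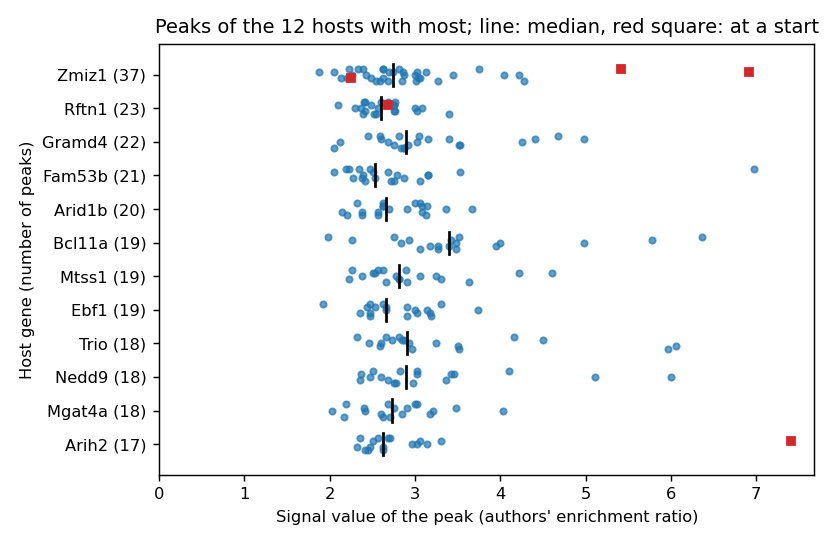
Signal value of every intragenic distal peak (horizontal axis, the authors' enrichment ratio) in the 12 genes that held the most of them (vertical axis), 1 mark per peak, with red squares at annotated starts and black lines at medians. The medians lie between 2.54 in Fam53b and 3.40 in Bcl11a, and single stronger peaks stand out in Arih2 (7.41), Fam53b (6.98) and Zmiz1 (6.91).

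Gene lists of blood lineages were compared by the share of their genes with room that held a peak, beside the 19.4% of all genes, and by peaks per Mb, beside 13.0. The lists differ in room: the median gene had 98 kb in the signalling and non-blood lists, 86.3 kb in the chromatin list, 60.1 kb in the stem list, 24.4 kb in the B-lineage list, 8.63 kb in the myeloid list and 19.3 kb over all genes. Of 27 B-lineage genes, 15 held one (55.6%, 37.3 to 72.4%), with 121 peaks and 107 per Mb. Peaks at B-lineage genes were known from earlier results of these data when the list was made, so this count is no independent support. Ebf1 and Pax5, which set up and keep B-cell identity, held 19 and 16 peaks. Bcl11a held 19, with a median signal value of 3.40, and Bach2, a repressor of plasma cell genes, held 13 between 2.13 and 3.46. The Pax5 peaks ran from 2.05 to 6.46. Of the Pax5 and Bach2 peaks, 11 and 7 had a q-value of at most 0.05. The median over the list, 2.84, was below the 2.94 of all intragenic distal peaks.

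Of 28 stem and progenitor genes, 14 held a peak (50%), with 84 peaks and 55.5 per Mb. Kit, the stem cell factor receptor used in the sort, held 14 peaks between 2.11 and 4.47, the strongest at chr5:75602550-75605994. Runx1 held 12 (2.15 to 4.90), Fli1 11 (2.29 to 8.48) and Erg 10 (2.34 to 3.44); all 3 are transcription factors of stem cells. The strongest Fli1 peak, at chr9:32539937-32541490, lay 2906 bp from the gene end. A q-value of at most 0.05 was attached to 6 of the peaks of Kit, 8 of Runx1, 6 of Fli1 and 6 of Erg. Of 19 myeloid genes, 3 held a peak (15.8%, 5.52 to 37.6%), with 4 peaks and 16.8 per Mb, a share near that of all genes. They were Spi1, which encodes PU.1, with 2 peaks (4.11 at chr2:91082021-91084371 and 5.26 at chr2:91095826-91098000), Irf8 with 1 (4.48, chr8:120745275-120747270) and Gfi1 with 1 (3.76). These 4 peaks had a median of 4.29. The 19 myeloid genes had 0.238 Mb of room.

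Of 24 T and NK cell genes, 11 held a peak (45.8%; 34.2 per Mb), led by Ets1 with 10, Lef1 with 8 and Satb1 with 5. These 3 are transcription and chromatin factors that other blood cells also use. With q at most 0.05, Ets1 and Lef1 held 5 each and Satb1 held 3. The 13 genes of the list without an intragenic distal peak, among them Cd3e, Cd3g and Cd8a of the T-cell receptor complex and coreceptor, had no peak at an end either. Of 19 erythroid and megakaryocytic genes with room, 4 did (21.1%, with 22.4 per Mb): Bcl2l1 with 11, Car2 with 4, and Vwf (7.65) and Zfpm1 (4.01) with 1 each. Of 24 genes of receptor signalling, 19 did (79.2%, 59.5 to 90.8%; 43.0 peaks per Mb), led by Jak1 with 15, Dock2 with 10, Inpp5d with 9 and Socs2 with 7. Among these 4 genes, the peaks with q at most 0.05 numbered 9 in Jak1, 7 in Socs2, 6 in Inpp5d and 2 in Dock2, and 7 of the 10 Dock2 peaks also lay inside Insyn2b. The 5 without were Fyb, Prkcb, Ptpn6, Rac2 and Rasgrp1. Of 24 chromatin genes, 17 did (70.8%, 50.8 to 85.1%; 46.2 per Mb), among them Arid1b, Arid1a (9 peaks, up to 9.15) and Hdac7. Markers of other cells were nearly without these peaks: 1 of 24 stromal and endothelial genes, Pecam1 with 3 peaks (2.29, 3.15 and 8.59), and 1 of 24 genes of non-blood tissues. Each of these shares is 4.17%, with an interval of 0.739 to 20.2% that includes the 19.4% of all genes, and the densities were 2.60 and 0.505 per Mb. Pecam1 is also made by blood cells. Of the 24 names on the erythroid list, Ahsp was not matched in the gene table. On that list, 5 of the Bcl2l1 peaks and 3 of the Car2 peaks had q at most 0.05.

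Shares were also counted over strong peaks alone. With −log10 q of at least 5, an intragenic distal peak lay in 8.30% of all genes with room, 29.6% of B-lineage, 35.7% of stem, 20.8% of T and NK, 15.8% of myeloid, 50% of signalling and 50% of chromatin genes. With a signal value of at least 4 it lay in 7.72% of all genes, 22.2% of B-lineage, 32.1% of stem, 20.8% of T and NK, 10.5% of myeloid, 50% of signalling and 50% of chromatin genes. The erythroid list had 15.8% and the stromal list 4.17% under both settings, and neither setting left a peak in the non-blood list.

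**Figure D5:**
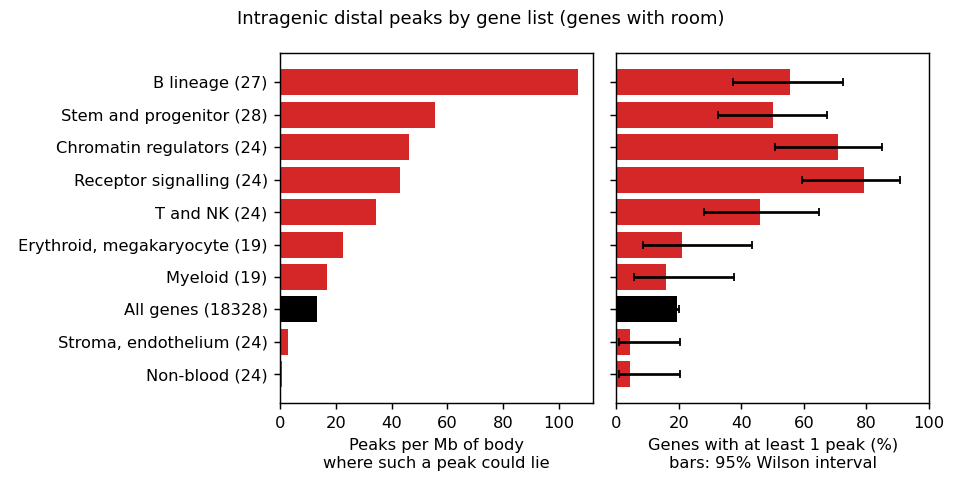
Gene lists (vertical axis, genes with room in parentheses) by intragenic distal peaks per Mb of room (left) and by percent of genes with at least 1 such peak (right, error bars are Wilson intervals), with all genes in black. B-lineage genes have the highest density (107 per Mb) and signalling genes the highest share (79.2%), while the stromal and non-blood lists (4.17% each) have intervals that reach past the 19.4% of all genes.

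The deleted genes and the sort markers were examined by themselves. Kmt2d held 2 intragenic distal peaks, 4.25 at chr15:98870579-98871221 and 3.95 at chr15:98871389-98872247, with their summits on either side of an annotated start 2872 bp inside the gene. The first of these peaks covers that start. The window of that start is among the printed sequences. Kmt2c held none, and it had a peak at an end. The peaks do not test the deletion, since the deleted stretch is not given in the sources used here and acetylation does not measure the transcript. Of 8 sort and stage markers 2 held such a peak: Kit with 14 and Flt3 with 2 (3.27 and 5.05). Kit, Flt3, Cd48 and Slamf1 had a peak at an end. Ly6a, the gene of Sca1, had neither a peak at an end nor one inside, but only 1153 bp of room.

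Intragenic distal peaks lay close to other peaks. The median distance to the nearest other summit was 2.85 kb, against 10.5 kb for peaks near a gene end, 7.95 kb for intergenic peaks, 3.96 kb deep inside long genes and 5.49 kb for all peaks. Another summit lay within 12 kb of 71.3% of them (70.3 to 72.3%), against 61.2% of all peaks. The share was 67.7% (65.8 to 69.5%) deep inside long genes, 57.1% for intergenic peaks and 51.9% near a gene end. Intragenic distal peaks with such a neighbour had a median signal value of 2.90 (n = 5571), and those without had 3.02 (n = 2237). Density on single chromosomes ran from 11.0 per Mb on chromosome 3 to 17.5 on chromosome 15 and 17.1 on chromosome 17.

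The limits of the rule cut through continuous values. Just above 1 kb lay the summits in Ackr2 (1001 bp, signal value 2.56), Ezh2 (1002 bp, 7.50) and Ecsit (1003 bp, 4.99), and just below it those in Syne3 (1000 bp, 3.58) and U2af2 (998 bp, 8.33). Just inside 50 kb were Arid1b (49997 bp, 2.69), Zfp521 (49989 bp, 3.12) and Lrrfip1 (49928 bp, 2.48), and just outside Fbn1 (50012 bp, 3.36), Slc10a7 (50016 bp, 2.42) and Me1 (50023 bp, 2.96). The widest peaks kept were in Slc6a6 (3997 bp, 7.16), Ube2e3 (3994 bp, 6.30) and Hoxa9 (3994 bp, 5.81), and the narrowest left out in Snx8 (4003 bp, 8.14), Jakmip1 (4006 bp, 7.35) and Sik3 (4010 bp, 3.32).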

How the data were processed

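A single deposited list holds the peaks of all 4 H3K27ac libraries over 1 input library, in coordinates read as GRCm38. BWA, MACS2 and the build mm10 are named per the submitters' processing notes, without roles or versions. The deposited name marks the list as an optimal overlap set with the input as background, and neither the filters nor the way replicates entered the overlap is given in the sources used here. The deposited signal value was taken to be an enrichment ratio (fold over background) by the authors. The deposited −log10 p-values and −log10 q-values, and the deposited score, came from the authors' peak caller. Columns of unmapped samples numbered 0. Gene bodies and ends came from the RefSeq gene table of GRCm38.p6, and strand and start sequences from the RefSeq start table. Summits were counted from 1, in Python 3.11.15 with pandas 2.3.3, numpy 2.4.6 and scipy 1.17.1, and figures drawn with matplotlib 3.10.9. The scripts for position and overlap were tested on simulated data. The members, the 10 gene lists and the motifs were chosen with earlier results of these data known. Genes were named by rule: the 10 strongest peaks, the 12 genes with most peaks, the 4 leading genes of each list and listed genes without a peak where at most 5 lacked one, the 3 peaks nearest each side of a limit, the deleted genes and the sort markers. Some genes that this rule names are not reported here. Any other gene was picked after its values had been seen. Alternatives changed the peak threshold, the limits of distance and width, the position of a peak, the set of gene ends and the merging of near peaks.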

Additional observations from a re-analysis of the deposited data

How the results depend on the processing

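No paired analysis was possible because single libraries have no values in the list, and for the same reason no library could be left out. With q at most 0.05, the median signal was 3.30, the width 1061 bp, the q share 100%, the density ratio 1.54, hosts with a peak at an end 47.7% and the share at starts 18%. With −log10 q of at least 5, there were 1867 peaks in 1522 hosts, signal 4.96, width 1807 bp, q share 100%, ratio 2.5, hosts with a peak at an end 30.9%, share at starts 30.5% and B-lineage share 29.6%. With a signal value of at least 4, these were 1701, 1415, 5.14, 1842 bp, 100%, 2.60, 30.04%, 31.9% and 22.2%. A near limit of 2.5 kb gave signal 2.87, width 787.5 bp, q share 69.5%, end share 56.03%, starts 9.68% and a reversed ratio of 0.889. A far limit of 25 kb gave 2.999, q share 74.0% and starts 17.7%, and one of 100 kb gave q share 70.3%, ratio 1.37 and starts 12.6%. Width was 832.5 bp with no limit on width. By midpoints, width was 829 bp and the ratio 1.41. With all gene ends, the q share was 70.1% and starts 10.8%. Merged peaks gave 3.03, 1090 bp, 74.2%, ratio 1.10, end share 44.7% and starts 15.8%. Start windows of 500 bp and 2 kb, chosen after seeing the data like the restriction on CpG, gave 9.08% and 20.4%. Intragenic distal peaks let count at an end, also added later, gave 60.9%. The cause was not tested. Of 183 alternative values, 122 stayed within the interval of the reported value or, for counts, within 1.5 times of it. Of these 122, 79 were shares of gene lists other than the B-lineage list, whose intervals are wide. For the other results, which are the main ones, 43 values stayed, 49 moved outside and 1 reversed. Motifs were counted at starts, since summit sequences were not used here. Depth was not given, so the limit of detection is unknown.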

Other observations

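Hairpins of 10 microRNAs overlapped 10 intragenic distal peaks, whose signal values ran from 2.26 to 11.1; these genes were named after their values were seen. The strongest was at Mir5620 in Clcn4 (11.1), followed by Mir7655 in Mllt10 (8.02) and Mir1931 in Cdk17 (6.58). Mir139, within Pde2a, lay under a weak peak of 2.30 at chr7:101474267-101477516, with the hairpin 403 bp from the summit. Its mature sequences are shown with the seed, bases 2 to 8, in capitals, from RefSeq.
mmu-miR-139-5p: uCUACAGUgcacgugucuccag
mmu-miR-139-3p: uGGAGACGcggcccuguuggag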
